A study of Homo sapiens with 18 samples.

Results

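The activin and follistatin axis was described here by 10 genes, namely the ligand genes *INHBA*, *INHBB*, *INHBE* and *GDF11*, the receptor genes *ACVR1B*, *ACVR2A* and *ACVR2B*, the genes of the secreted ligand binders *FST* and *FSTL3*, and the follistatin-like gene *FSTL1*. They were taken by gene symbol from the 21944 genes listed in the deposited table, and all 10 were found. The set was chosen by gene symbol when the authors' fold changes between LN411 and FN in these same samples were already known, so that it is not independent of them. The study reseeded pancreatic progenitors made from human embryonic stem cells, at day 19 of differentiation, on laminin-411 (LN411) or fibronectin (FN) and collected them after 3, 6 or 24 h for bulk RNA sequencing. The 18 samples form 6 groups of 3, namely FN 3 h, FN 6 h, FN 24 h, LN411 3 h, LN411 6 h and LN411 24 h. The sample labels name the HUES4 line, while the growth protocol names NGN3-GFP cells derived from SA121. The paper's figure legend for this sequencing also names progenitors derived from the NGN3-GFP line. All groups share the reseeding after accutase treatment, and cells that were not reseeded are not among them. The paper lists activin A, ALK5iII and noggin among its reagents and does not say at which step each was used.

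The one value per gene used here is the authors' mean normalized count, an average over samples after scaling for library size. It was the same at 3, 6 and 24 h for every gene listed more than once, with a largest relative gap of 4.89e-07 between times, and therefore separates neither the matrices nor the time points. Since single samples were not analysed, no level below has a replicate error, library depths are unknown and no difference between LN411 and FN was tested for any gene. The authors' own fold changes and p-values in the same table were not used. What follows is the level of each gene over the pooled experiment and the order of these levels, as a description. In a bulk sample, few cells with much RNA of a gene and many cells with little cannot be told apart.

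Activins are dimers of inhibin beta chains. They bind a type II receptor, which recruits and activates a type I receptor, and the signal passes through SMAD2 and SMAD3 bound to SMAD4. Follistatin and follistatin-like 3 are secreted proteins that wrap around activin and keep it from its receptors. In the pancreas, activin-type ligands and follistatin are known as signals between the mesenchyme and the epithelium during the choice between exocrine and endocrine fates.

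The cells carried the RNAs of the receptors and of the binding proteins at high or moderate levels, and those of the activin beta chains at low levels. Levels are given as the authors' mean normalized count divided by the length of the longest annotated transcript in kilobases (kb), since longer transcripts give more reads. On this scale, 7 of the 10 genes lay above the median of all genes listed, which was 99.6 per kb, and the 3 below it were *INHBA*, *INHBB* and *INHBE*. This median and all shares of genes below cover listed genes only, so annotated genes that were not listed do not count as lower. The highest and the lowest of the 10 genes, *FSTL1* and *INHBE*, differed 1216-fold.

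**Figure D1:**
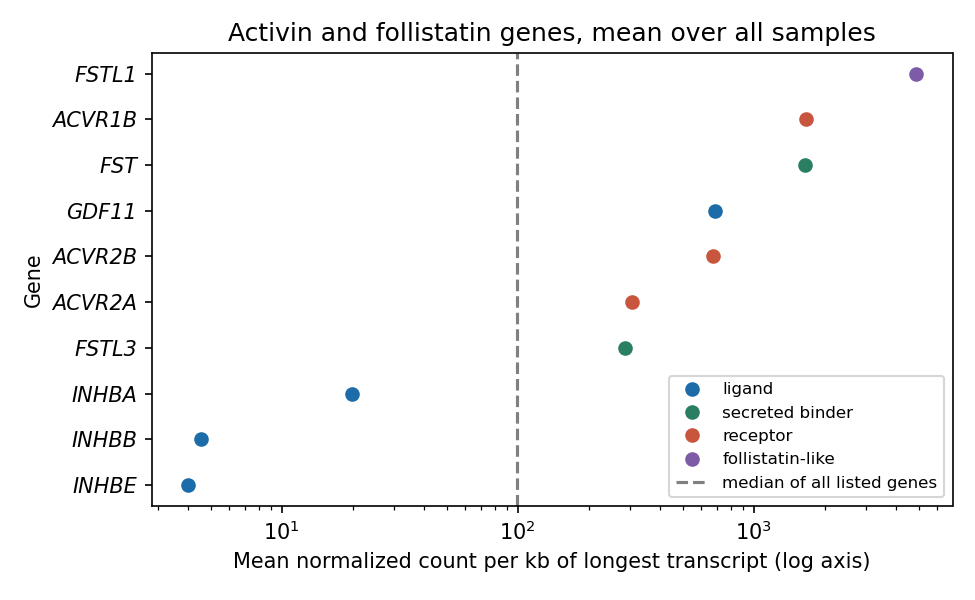
The authors' mean normalized count per kb of the longest transcript is plotted on a log axis for each of the 10 genes, with 1 point per gene coloured by role and a dashed line at the median of all listed genes, 99.6 per kb. The points of *INHBA*, *INHBB* and *INHBE* lie to the left of the line and the other 7 to the right, and there are no error bars because the value is a single mean over samples.

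Among the ligand genes, *GDF11* stood apart from the inhibin beta chains. *GDF11*, which encodes a ligand that signals through the activin type II receptors (ENSG00000135414, chromosome 12 of GRCh38, 55743122 to 55757264), was at a mean normalized count of 6029, or 685.1 per kb. This was higher than in 79.8% of the genes listed. *INHBA*, whose product forms activin A (ENSG00000122641, chromosome 7, 41667168 to 41705834), had a mean normalized count of 119.95, or 19.8 per kb, which exceeded 28.6% of genes. Per kb, *GDF11* was 34.5 times as high as *INHBA*. *INHBB*, the beta chain of activin B (ENSG00000163083, chromosome 2, 120346136 to 120351803), had a mean normalized count of 14.6 and a level of 4.54 per kb. *INHBE*, which encodes a beta chain best known from the liver (ENSG00000139269, chromosome 12, 57452323 to 57459280), was at 9.86, or 4.01 per kb. Only 8.44% and 7.16% of the genes listed were lower than *INHBB* and *INHBE*. *INHBE* was listed at 3 and 6 h and not at 24 h, while the other 9 genes were listed at all 3 times. Because the value used is a mean over samples, this does not give the level of *INHBE* at 24 h. The order of *INHBB* and *INHBE* rests on mean normalized counts of under 15.

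All 3 receptor genes were above the median. *ACVR1B* encodes the type I receptor ALK4, through which activins signal (ENSG00000135503, chromosome 12, 51951699 to 51997078), and had the highest level of the receptors, with a mean normalized count of 7533 and 1663 per kb. It exceeded 91.7% of genes. The type II receptor gene *ACVR2B* (ENSG00000114739, chromosome 3, 38453890 to 38493142) had a mean normalized count of 7894 and, owing to its long transcript of 11782 bases, a level of 670.0 per kb. The other type II receptor gene, *ACVR2A* (ENSG00000121989, chromosome 2, 147844517 to 147930826), was lower, with 1590 and 305.0 per kb. *ACVR2B* was thus 2.20 times as high as *ACVR2A* per kb. Without division by length, *ACVR2B* was 4.96 times as high as *ACVR2A* and 1.05 times as high as *ACVR1B*, whereas per kb it stood at 0.403 of *ACVR1B*.

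The gene of the main activin antagonist was far above the genes of the activin chains. *FST*, which encodes follistatin (ENSG00000134363, chromosome 5, 53480626 to 53487134), had a mean normalized count of 4186, or 1649 per kb, and exceeded 91.7% of genes. Its level per kb was 83.1 times that of *INHBA*, or 105.0 times when all annotated exons were taken as the length and 34.9 times without division by length. *FSTL3*, the related antagonist (ENSG00000070404, chromosome 19, 676392 to 683392), was at 714.9, or 285.8 per kb, and *FST* was 5.77 times as high. *FSTL3* was 14.4 times as high as *INHBA* per kb and 5.96 times as high without division by length. *FST* and *GDF11* were closer, with *FST* 2.41 times as high per kb but at 0.694 of *GDF11* without division by length.

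*FSTL1* was the most abundant of the 10 genes. It encodes a secreted glycoprotein that shares a follistatin-type domain with follistatin but is not an equivalent activin antagonist (ENSG00000163430, chromosome 3, 120392293 to 120451016). Its mean normalized count was 27938, or 4874 per kb, higher than in 97.6% of genes. Per kb, it was 2.96 times as high as *FST*, or 1.95 times per kb of all annotated exons and 6.67 times without division by length. It was 17.1 times as high as *FSTL3* per kb, or 12.6 times per kb of all annotated exons and 39.1 times without division by length.

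From the highest to the lowest level per kb, the genes followed the order *FSTL1*, *ACVR1B*, *FST*, *GDF11*, *ACVR2B*, *ACVR2A*, *FSTL3*, *INHBA*, *INHBB* and *INHBE*. This is the order of means over both matrices and all times, and the order within LN411 or FN samples was not analysed. Without a spread over samples, it could not be tested which neighbours in this order differ. The pair of *ACVR1B* and *FST* changed places with the choice of length, since *FST* was at 1821 and *ACVR1B* at 1663 per kb of the canonical transcript, and at 1521 and 1331 per kb of all annotated exons. *GDF11* and *ACVR2B*, nearly level per kb of the longest transcript, were at 685.1 and 502.6 per kb of all annotated exons. Without division by length, the order also changed, with *ACVR2B* at 7894 and *ACVR1B* at 7533 above *GDF11* at 6029 and *FST* at 4186.

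**Figure D2:**
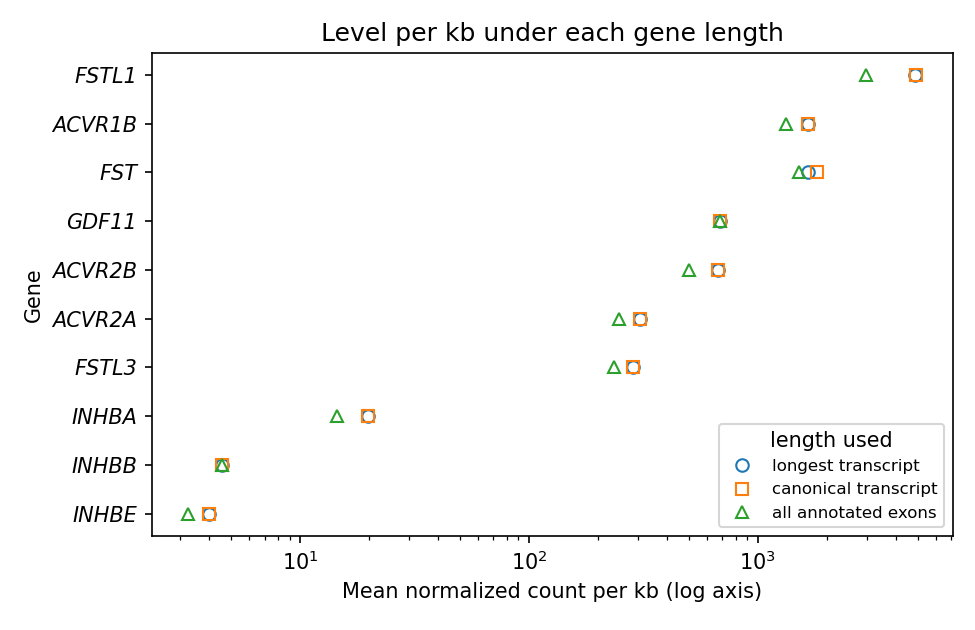
Mean normalized counts per kb are plotted on a log axis for the 10 genes with 3 gene lengths, the longest transcript (circles), the canonical transcript (squares) and all annotated exons (triangles). The symbols of a gene lie close together compared with the distance from *INHBA*, at 14.5 to 19.8 per kb, up to *FSTL3*, at 235.7 to 285.8 per kb, while *FST* and *ACVR1B* overlap.

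The annotation places other genes over some of the 10. Exons of 5 of them overlap an exon of another gene on the opposite strand or, for *FSTL1*, also the microRNA gene *MIR198* on the same strand. The largest such share was in *INHBE*, where 16.4% of exon bases are shared with an antisense long non-coding RNA gene. In *ACVR2A*, 431 exon bases, 6.68% of its exons, lie over *ORC4*, a gene of the origin recognition complex on the opposite strand with a mean normalized count of 2772. *GDF11* shares 378 exon bases, 4.29% of its exons, with the protein-coding gene *SARNP*, and *INHBA* shares 248 exon bases with *INHBA-AS1*. These overlaps are those of GENCODE v44, while the reads were counted with GENCODE v32. The strand setting of the counting is not given in the sources used here, so that reads from these stretches may have been assigned to either gene or left out. *INHBB*, *FST* and *FSTL3* overlap no other annotated gene.

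The other genes of the pathway were taken from a list of 25, of which 23 were listed and *GDF1* and *GDF3* were not. Of the 23, 12 lay above the median of all listed genes, and their median level was 116.0 per kb, against 487.5 per kb over the 10 genes of the axis. The former is the level of *SMAD2*, which rests on the length of its longest transcript, and no other length was tried for this list. Both lists were made with earlier results of these data known, so the medians are a description and their difference was not tested. Among ligands, *NODAL*, *MSTN* and *INHBC* were at 3.50, 5.86 and 7.22 per kb, in the range of *INHBB* and *INHBE*. *INHA*, the inhibin alpha chain, which pairs with a beta chain to form an inhibitor of activin signalling, was at 248.1 per kb and so above *INHBA*. *FURIN*, a protease that cleaves the precursors of many ligands of this family, was at 2150 per kb.

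The receptors of the wider list ranged from 6.71 to 459.0 per kb. *ACVR1C*, which encodes the type I receptor ALK7, was at 6.71 per kb, compared with 1663 per kb for *ACVR1B*. The co-receptor gene *TDGF1* was at 9.09 per kb and the related *CFC1* at 459.0 per kb. *ACVR1* and *BMPR2*, receptors better known for BMP ligands, were at 258.7 and 381.7 per kb, close to *ACVR2A*. *TGFBR3*, the co-receptor betaglycan, was just under the median of all listed genes with 92.5 per kb.

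Of the 7 genes grouped as other inhibitors, 3 lay above the median of all listed genes. The group includes the follistatin-like genes *FSTL4* and *FSTL5*, and whether these inhibit activin was not examined. *BAMBI*, a decoy receptor without a kinase domain, was at 1580 per kb, *LEFTY1*, an antagonist of NODAL, at 1212 and *WFIKKN1* at 165.0 per kb. *LEFTY2* was at 6.56 and *WFIKKN2* at 7.66 per kb, and the follistatin-like genes *FSTL4* and *FSTL5* were at 28.4 and 2.88 per kb, far below *FSTL1*. Among the signal transducers, *SMAD4* was at 536.1, *SMAD3* at 498.5, *SMAD2* at 116.0 and their DNA-binding partner *FOXH1* at 78.3 per kb. *SMAD7*, the inhibitory SMAD, which blocks signalling at type I receptors, was at 191.9 per kb. *SMAD2* had the higher mean normalized count of the receptor-activated pair, 4015 against 3222 for *SMAD3*, so that its lower level per kb rests on the length of its longest transcript.

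**Figure D3:**
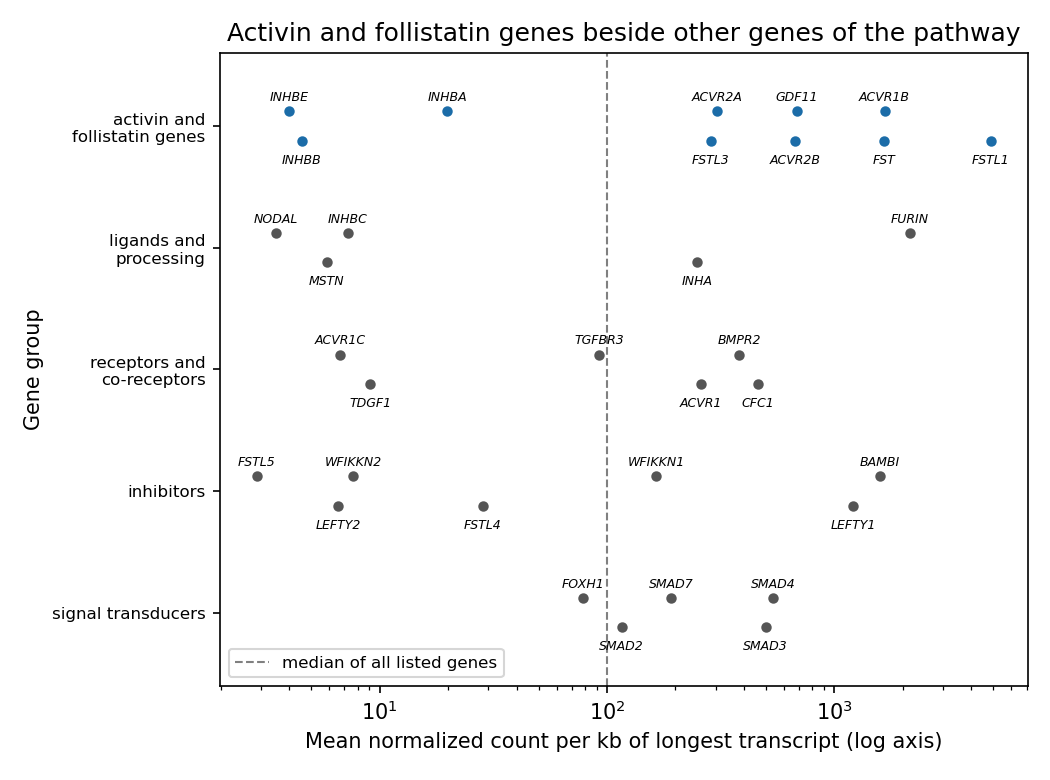
Levels per kb of the longest transcript are plotted on a log axis, with the 10 activin and follistatin genes in the top row (blue) and the 23 other listed pathway genes below by the list's groups (grey, with the inhibitory *SMAD7* among the signal transducers), each point 1 gene and the dashed line the median of all listed genes. The activin beta chains share the low range with *NODAL*, *MSTN* and *INHBC*, while *FST* lies among *LEFTY1*, *BAMBI* and *FURIN*, at 1212 to 2150 per kb.

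Marker genes were read from the same column to describe the cells behind these levels. Of 8 genes of pancreatic progenitors, 7 lay above the median of all listed genes, among them *PDX1* with 4969, *SOX9* with 5259 and *GP2* with 40743 per kb, and *PTF1A* was at 8.10 per kb. Markers of mesenchyme, a tissue in which follistatin and *FSTL1* are also made, were present in part. *COL1A2* was at 7527 and *COL1A1* at 691.7 per kb, *PDGFRA* at 136.0, *COL3A1* at 58.3 per kb and *PDGFRB* lower still, and *DCN* was not listed. All 3 liver genes lay above the median, with *AFP* at 10996, *APOA2* at 4314 and *ALB* at 280.0 per kb. Of 7 endocrine genes, 3 lay above it, with *CHGA* at 2172, *NEUROG3* at 289.0 and *INSM1* at 198.7 per kb, while *NKX2-2* was at 51.9, *NEUROD1* at 19.8, *GCG* at 14.5 and *INS* at 13.02 per kb. The part of other cell types in the levels of *FST*, *FSTL1* and *INHBE* was not tested. All 4 endothelial markers were at 11.0 per kb or below, and the pluripotency genes *POU5F1* and *NANOG* and the blood cell gene *PTPRC* were not listed.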

How the data were processed

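Libraries of polyadenylated RNA were made from 18 samples. Per the paper's methods and the submitters' processing notes, reads were aligned with STAR 2.7.2d to GRCh38.p13, counted per gene with STAR and GENCODE v32, and normalized with DESeq2 1.34.0. The authors deposited 1 mean normalized count per gene, a signal averaged over samples after division by size factors. The other 5 columns of values hold the authors' own comparisons of LN411 with FN at each time, namely log2 fold changes, standard errors, test statistics, p-values and adjusted p-values, and were not used. Values of single samples were not analysed here, so the planned tests of LN411 against FN and of their change with time could not be made.

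Levels were divided by the length of the longest GENCODE v44 transcript, matched by Ensembl identifier for 99.6% of 21944 listed genes. Positions are those of GENCODE v44, on the same assembly. The percentage beside a level is the share of listed genes with a lower level. Of the listed genes, 20233 were listed at 3 h, 21140 at 6 h and 19569 at 24 h. The functions that rank levels and merge exons were tested on made-up values, and the other steps were not tested in this way. The genes and lists were chosen with earlier results of these data known, and all 10 genes were named. Python 3.11.15, numpy 2.4.6, pandas 2.3.3 and matplotlib 3.10.9 were used.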

Additional observations from a re-analysis of the deposited data

How the results depend on the processing

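The count of 7 of 10 genes above the median was the same without division by length. It was also the same per kb of the canonical transcript or of all annotated exons, these last 2 chosen after the data were seen. Matching by Ensembl identifier found the same 10 genes, so it could not change the count. Among the 18672 genes listed at all 3 times, which hold 9 of the 10 genes and not *INHBE*, 7 of the 9 lay above the median. Over these settings, the share of genes with a lower level ranged from 86.7% to 93.8% for *FST*, from 18.4% to 42.0% for *INHBA* and from 75.8% to 93.8% for *ACVR2B*. No paired analysis was possible because the value used is a single mean over samples. For the same reason the other normalizations, filters, pseudocount, DESeq2 and fits without single replicates were not run. Mean normalized counts under 15, as for *INHBB* and *INHBE*, are the least certain of these levels, and without the depth of each library no counting interval could be given.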
